A study of Mus musculus with 2 samples.

Results

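Antioxidant and detoxification genes were compared between skeletal muscle of Jhdm2a null mice and of wild-type mice on 2 Affymetrix Mouse Genome 430 2 arrays. The genes were taken from a list of 44 symbols in 9 families: metallothioneins, glutathione peroxidases, peroxiredoxins, superoxide dismutases, cytosolic and microsomal glutathione S-transferases, glutathione synthesis and reduction, the thioredoxin system, and a group of NRF2 with its inhibitor and a target. A probe set was used where the platform annotation gave it exactly 1 symbol and that symbol was on the list. This held for 80 probe sets of 41 genes, out of 18193 genes with such a probe set on the array. Prdx1, Prdx5 and Prdx6 had no probe set with 1 symbol and were not analysed here.

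The 1 array of the null group carried RNA combined from 3 male Jhdm2a null mice aged 3 months, and the 1 array of the wild-type group carried RNA combined from 3 male wild-type mice of the same age. Both groups share a mixed background, given as 129 embryonic stem cells crossed back to C57BL/6 over 4 generations. Jhdm2a, now named Kdm3a, is a demethylase of lysine residues in histone H3. The labels do not say which part of the gene is missing in the null mice.

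Reactive oxygen species and electrophiles arise in muscle from mitochondria, from contraction and from lipid breakdown. Superoxide dismutases turn superoxide into hydrogen peroxide, which glutathione peroxidases and peroxiredoxins then reduce with electrons from glutathione and thioredoxin. Glutathione S-transferases couple glutathione to electrophiles, metallothioneins hold zinc and copper through cysteines, and the transcription factor NRF2, which KEAP1 marks for degradation, drives many of these genes through antioxidant response elements.

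The values are MAS5 signal intensities, and the 60th percentile of the signals of non-control probe sets on the 2 arrays together, 182, served as a floor. Probe sets brighter than this on both arrays count as measured. The log2 ratios of a gene's measured probe sets, null over wild type, were averaged to give the value of the gene. Each genotype has 1 pooled array, so there is no replicate to check a difference against and no test was run, and "higher" or "lower" describes these 2 arrays only. The precision is limited by the number of arrays. Log2 ratios of probe sets of the same gene had a pooled SD of 0.29 over 3719 genes, and 18 hybridisation controls averaged -0.02 ± 0.09 (SD). The first is a spread between different probe sets of a gene and not the error of a gene value. Both leave out variation between mice. For beta-actin the control probe sets had a 3′ to 5′ ratio of 0.864 in the null-labelled pool and 0.999 in the wild-type-labelled pool, and for Gapdh it was 0.828 in the null-labelled pool and 0.813 in the wild-type-labelled pool. The 1 probe set of Kdm3a read 488 in the null-labelled pool and 406 in the wild-type-labelled pool, so it was not lower where the label says null. Where it lies relative to the missing part is unknown, so it is no check of the labels, and the arrays are called by their labels for this reason.

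Markers of fat and liver differed between the pools. Ucp1, the uncoupling protein of brown fat, read 283 in the null-labelled pool and 14885 in the wild-type-labelled pool. Of 14 brown adipocyte markers with a probe set, 10 passed the floor in the null-labelled pool and 14 in the wild-type-labelled pool. Of the 10 measured on both arrays, 5 were at least 1.5-fold lower, where 6.34% of all measured genes were. None was 1.5-fold higher, and their median log2 ratio was -1.16. Cox7a1 and Cox8b, which muscle also expresses, differed little. Together they read 32629 in the null-labelled pool and 34117 in the wild-type-labelled pool. The brown adipocyte markers under the floor on the null-labelled array were Elovl3, Kcnk3, Otop1 and Slc27a2. Adipoq, the fat cell hormone adiponectin, read 1145 in the null-labelled pool and 11443 in the wild-type-labelled pool. Of 14 adipocyte markers measured on both arrays, 11 were at least 1.5-fold lower and none 1.5-fold higher, with a median log2 ratio of -1.80. Alb, which encodes albumin, read 361 in the null-labelled pool and 2635 in the wild-type-labelled pool. Of 22 hepatocyte markers with a probe set, 5 passed the floor in the null-labelled pool and 15 in the wild-type-labelled pool. Of the 5 measured on both arrays, 4 were at least 1.5-fold lower, and their median log2 ratio was -2.60. Apoa1, Apoa2, Ttr and Fga were among those under the floor on the null-labelled array. The 14 skeletal muscle fibre markers were all above the floor on both arrays, none differed by 1.5-fold, and their median log2 ratio was 0.16. In bulk tissue, fewer cells of a type and less RNA per cell cannot be told apart, and the part that fat and liver RNA has in the values below was not tested.

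Of the 41 genes, 38 were measured, and each gene past 1.5-fold was lower on the null-labelled array. At least 1.5-fold lower were 10 of the 38 (26.3%), where 6.34% of all 9696 measured genes were. They were Mt1, Gpx1, Gpx4, Gpx8, Sod3, Gsta4, Gstm4, Gstz1, Mgst1 and Txn1. None of the 38 was 1.5-fold higher, where 3.38% of all genes were. At 2-fold, 3 genes were lower (Mt1, Sod3 and Gpx8) and none was higher, against 2.37% and 0.371% of all genes. The log2 ratio was below 0 for 25 of the 38, against 44.3% of all genes, and the median was -0.17 against 0.04 over all measured genes. The list was chosen with earlier results of these data known, so these shares describe the list and test nothing. In 9 of the 10 lower genes the value rests on 1 measured probe set, and in Gpx4 on 2. Mt1, Sod3, Mgst1 and Txn1 each have a further probe set that was not above the floor on both arrays, with values given below. The 10 genes lie on 9 chromosomes. Of the genes on the list, Mgst1 and Gstk1 lie on chromosome 6, which also carries Kdm3a.

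**Figure D1:**
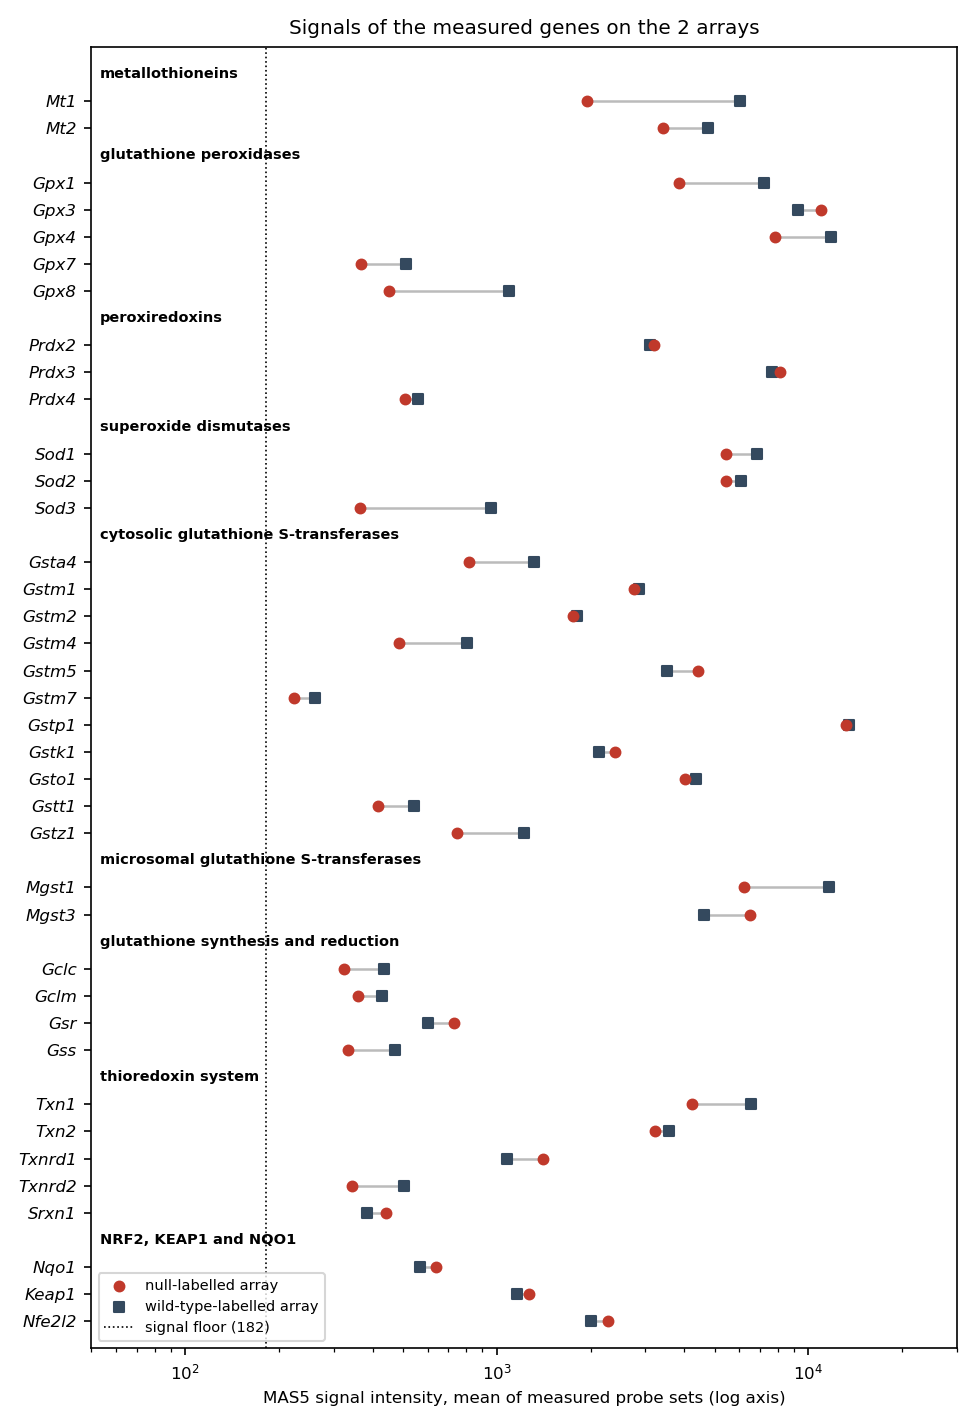
MAS5 signal (log axis) of each of the 38 measured genes on the null-labelled array (red circles) and the wild-type-labelled array (dark squares), as the mean over its measured probe sets, grouped by family, with the signal floor of 182 dotted. The widest gaps are at Mt1, Gpx8 and Sod3, with the null-labelled array to the left, while Gstm1, Gstm2 and Gstp1 nearly coincide.

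The 2 listed metallothioneins, small cysteine-rich proteins that buffer zinc and copper, were both lower. A further metallothionein, Mt3, was not on the list and is named after its value was seen. It read 381 in the null-labelled pool and 277 in the wild-type-labelled pool, a log2 ratio of 0.46 in the other direction. Mt1 read 1949 in the null-labelled pool and 6029 in the wild-type-labelled pool, 3.09-fold lower (log2 ratio -1.63). This was the lowest value among the 38 genes, and only 1.05% of all measured genes were lower still. Mt2 read 3416 in the null-labelled pool and 4781 in the wild-type-labelled pool, a log2 ratio of -0.49 that stayed within 1.5-fold. The probe set behind Mt1 belongs to a class, marked by the suffix s, that can bind several related transcripts. A further Mt1 probe set was under the floor on both arrays, at 66.8 in the null-labelled pool and 97.5 in the wild-type-labelled pool. With no floor and a pseudocount of 50 the 2 probe sets together gave -0.97.

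Mt1 and Mt2 are neighbours on chromosome 8 with no other annotated gene between their start positions in RefSeq. Their promoters are shown because metallothionein genes are textbook targets of the zinc-sensing factor MTF1, which binds metal response elements. The 250 bases before each RefSeq start follow, on the plus strand of GRCm38.p6, with capitals for matches to TGCGCNC or TGCACNC on either strand.
Mt1, chr8:94178839-94179088: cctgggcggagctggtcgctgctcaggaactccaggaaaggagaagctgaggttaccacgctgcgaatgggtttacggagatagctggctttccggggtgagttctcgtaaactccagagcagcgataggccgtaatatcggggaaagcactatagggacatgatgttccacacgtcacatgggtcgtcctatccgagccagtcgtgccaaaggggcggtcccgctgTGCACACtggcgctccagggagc
Mt2, chr8:94172368-94172617: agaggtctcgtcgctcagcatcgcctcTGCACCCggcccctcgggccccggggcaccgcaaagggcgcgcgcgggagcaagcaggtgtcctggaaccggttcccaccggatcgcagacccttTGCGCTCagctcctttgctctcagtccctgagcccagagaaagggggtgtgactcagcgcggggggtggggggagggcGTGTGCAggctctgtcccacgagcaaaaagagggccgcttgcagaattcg
In the RefSeq window of 300 bases, which adds 50 bases after the start, Mt1 had 3 matches, 1 of them in the printed stretch, and Mt2 had 4, of which 3 are printed. At least 1 match occurred in 25.7% of 32851 mouse promoter windows, and 3 or more in 1.97%. Gclm was the other listed gene with 3 matches. A match is a description of letters and does not show that a factor binds there.

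Glutathione peroxidases divided by member, with 3 of 5 at least 1.5-fold lower. Gpx1, the cytosolic selenoenzyme that reduces hydrogen peroxide, read 3857 in the null-labelled pool and 7199 in the wild-type-labelled pool, 1.87-fold lower (log2 ratio -0.90). Gpx4, the selenoenzyme that reduces lipid hydroperoxides in membranes, had log2 ratios of -0.78 and -0.42 in its 2 probe sets and a mean of -0.60 ± 0.25 (SD of 2 probe sets). The lower of its probe sets read 6880 in the null-labelled pool and 11797 in the wild-type-labelled pool. Only 1 of the 2 lies past 1.5-fold, so this call is close to the threshold. Gpx8, a peroxidase of the endoplasmic reticulum without selenocysteine, read 451 in the null-labelled pool and 1092 in the wild-type-labelled pool, 2.42-fold lower (log2 ratio -1.27). Its relative Gpx7, of the same compartment, read 366 in the null-labelled pool and 512 in the wild-type-labelled pool (-0.48). Gpx3, the secreted peroxidase of plasma, went the other way with 11008 in the null-labelled pool and 9285 in the wild-type-labelled pool, a log2 ratio of 0.25 that is smaller than the pooled SD between probe sets.

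The peroxiredoxins measured here were close to equal on the arrays. Prdx2, the cytosolic form abundant in red cells, had 0.11 ± 0.11 (SD of 2 probe sets), and its brighter probe set read 5576 in the null-labelled pool and 5460 in the wild-type-labelled pool. The mitochondrial Prdx3 read 8127 in the null-labelled pool and 7657 in the wild-type-labelled pool (0.09). Prdx4, the form of the endoplasmic reticulum, had -0.11 ± 0.16 (SD of 3 probe sets). None of these values exceeded the pooled SD, and Prdx3 turned to -0.02 after loess.

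Among superoxide dismutases, the extracellular form was the 1 that differed past 1.5-fold. Sod3, which is bound to the matrix outside cells, read 363 in the null-labelled pool and 962 in the wild-type-labelled pool in its measured probe set, 2.65-fold lower (log2 ratio -1.41). Its other probe set read 131 on the null-labelled array, under the floor, and 254 on the wild-type-labelled array, also lower on the null-labelled side. Sod1, the copper and zinc enzyme of the cytosol, had -0.19 ± 0.27 (SD of 3 probe sets), with its brightest probe set at 8346 in the null-labelled pool and 10563 in the wild-type-labelled pool. Sod2, the manganese enzyme of mitochondria, had 0.02 ± 0.36 (SD of 4 probe sets). Its 4 probe sets gave -0.36, -0.22, 0.26 and 0.38, so the mean near 0 hides disagreement between probe sets, and no direction is read from it.

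**Figure D2:**
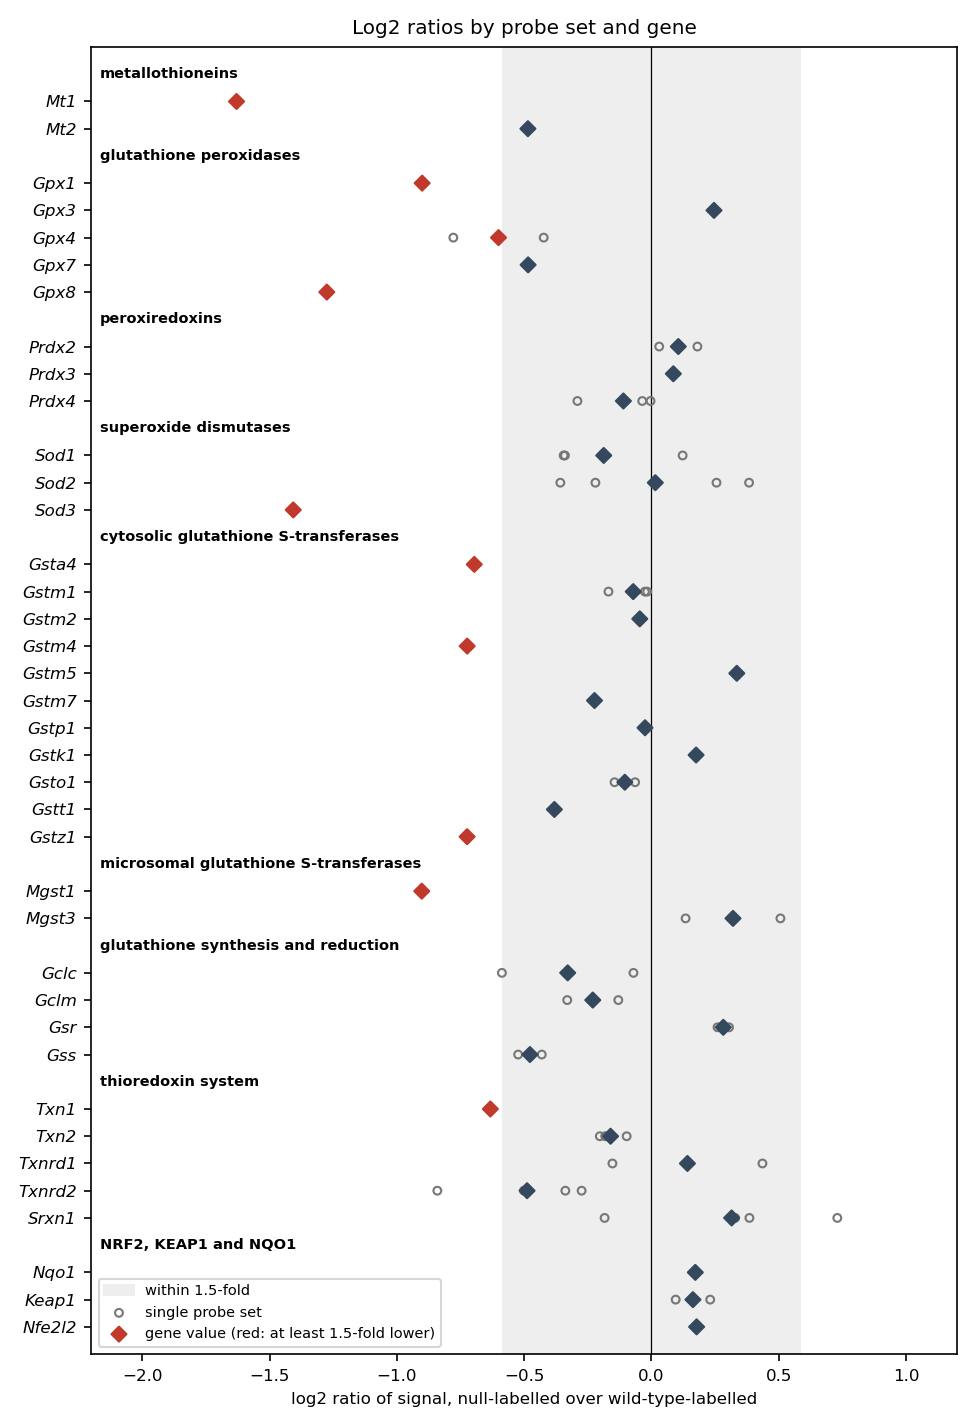
Log2 ratio of signal, null-labelled over wild-type-labelled, for each measured probe set (open circles) and for each gene as their mean (diamonds, red where at least 1.5-fold lower), by family, with the range within 1.5-fold shaded. The 10 red diamonds spread over 6 of the 9 families, and no diamond lies to the right of the shaded range.

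Cytosolic glutathione S-transferases had a median log2 ratio of -0.10 over 11 measured genes, and 3 of the 11 were at least 1.5-fold lower. Gsta4, which conjugates hydroxynonenal, an aldehyde of lipid peroxidation, read 815 in the null-labelled pool and 1321 in the wild-type-labelled pool (-0.70). Gstz1, which also acts as maleylacetoacetate isomerase in tyrosine breakdown, read 743 in the null-labelled pool and 1227 in the wild-type-labelled pool (-0.72). Gstm4, of the mu class, read 487 in the null-labelled pool and 805 in the wild-type-labelled pool (-0.72). The 3 values are alike in size, at 1.62-fold to 1.65-fold lower. Gstt2, of the theta class, passed the floor in the wild-type-labelled pool alone. It read 178 in the null-labelled pool and 471 in the wild-type-labelled pool, at least 2.59-fold lower against the floor. Its relative Gstt1 had -0.38.

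Mu-class genes stand next to one another on chromosome 3, where RefSeq lists 7 numbered Gstm genes, and the 5 on the list did not share 1 direction. Gstm5 was highest at 0.34, with 4440 in the null-labelled pool and 3519 in the wild-type-labelled pool. Gstm1 had -0.07 ± 0.07 (SD of 4 probe sets) and Gstm2 had -0.05, while Gstm7 had -0.22 at signals near the floor, 224 in the null-labelled pool and 261 in the wild-type-labelled pool. Gstm4 at -0.72 was the 1 member of the cluster past 1.5-fold. Mu-class transcripts are similar in sequence, and signal shared between them by cross-hybridisation was not tested.

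The remaining soluble transferases lay within 1.5-fold. Gstp1, the pi-class enzyme, read 13258 in the null-labelled pool and 13491 in the wild-type-labelled pool (-0.03). Gstk1, the kappa-class enzyme of mitochondria and peroxisomes, had 0.18, and Gsto1, the omega-class enzyme, had -0.10 ± 0.06 (SD of 2 probe sets). Gsta3, of the alpha class, was under the floor on both arrays in its 2 probe sets.

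Of the membrane-bound transferases, Mgst1 was the 1 past 1.5-fold. Mgst1, an enzyme of the endoplasmic reticulum and outer mitochondrial membrane, read 6235 in the null-labelled pool and 11652 in the wild-type-labelled pool, 1.87-fold lower (log2 ratio -0.90). A further Mgst1 probe set read 41.2 in the null-labelled pool and 41.4 in the wild-type-labelled pool, under the floor. When it was averaged in, with no floor and a pseudocount of 50, the gene's value was -0.45 and inside 1.5-fold. Mgst3 had 0.32 ± 0.26 (SD of 2 probe sets), within 1.5-fold, and its brighter probe set read 12474 in the null-labelled pool and 8780 in the wild-type-labelled pool (0.51). Mgst2 read 152 on the null-labelled array, under the floor, and 234 on the wild-type-labelled array.

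Of the 4 genes that make and recycle glutathione none reached 1.5-fold, and their median log2 ratio was -0.28. Gclc and Gclm, the catalytic and modifier subunits of the rate-limiting glutamate-cysteine ligase, had -0.33 ± 0.37 and -0.23 ± 0.14 (SD of 2 probe sets each). Gss, the synthetase that adds glycine, had -0.48 ± 0.07 (SD of 2 probe sets), with 435 in the null-labelled pool and 625 in the wild-type-labelled pool in the brighter one. Gsr, the reductase that returns oxidised glutathione to its reduced form, had 0.28 ± 0.03 (SD of 2 probe sets), with 1006 in the null-labelled pool and 840 in the wild-type-labelled pool. Gclm and Gsr lay within the pooled SD of 0.29, and the probe sets of Gclc ranged from -0.59 to -0.07, so no direction is read from these 3.

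In the thioredoxin system the cytosolic thioredoxin was lower and its reductase was within 1.5-fold. Txn1, the cytosolic thioredoxin, read 4220 in the null-labelled pool and 6542 in the wild-type-labelled pool, 1.55-fold lower (log2 ratio -0.63). A second Txn1 probe set, under the floor, read 91.6 in the null-labelled pool and 74.0 in the wild-type-labelled pool, and with no floor the gene's value was -0.22. Txnrd1, the reductase of cytosolic thioredoxin, had 0.14 ± 0.42 (SD of 2 probe sets), and its probe sets disagreed. The brighter one read 2600 in the null-labelled pool and 1922 in the wild-type-labelled pool (0.44), and the dimmer one, near the floor, read 210 in the null-labelled pool and 233 in the wild-type-labelled pool (-0.15).

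In the mitochondrial system neither gene value reached 1.5-fold. Txn2, the mitochondrial thioredoxin, had -0.16 ± 0.06 (SD of 3 probe sets). Txnrd2, its reductase, was lower in all 4 probe sets, with a mean of -0.49 ± 0.25 (SD of 4 probe sets) and -0.84 in the brightest, which read 498 in the null-labelled pool and 892 in the wild-type-labelled pool. Srxn1, sulfiredoxin, which repairs overoxidised peroxiredoxins, had 0.31 ± 0.38 (SD of 4 probe sets). Its brightest probe set read 631 in the null-labelled pool and 717 in the wild-type-labelled pool (-0.18), while the other three were above 0, the highest at 0.73.

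NRF2, its inhibitor and its marker target Nqo1 were nearly equal on the arrays. Nfe2l2, which encodes NRF2, read 2277 in the null-labelled pool and 2013 in the wild-type-labelled pool (0.18). Keap1 had 0.16 ± 0.10 (SD of 2 probe sets). Nqo1, a quinone reductase, read 641 in the null-labelled pool and 569 in the wild-type-labelled pool (0.17). All 3 values were above 0 and below the pooled SD of 0.29.

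The letters TGACNNNGC, a core of the antioxidant response element, were searched on both strands of the RefSeq promoter windows. Of the 44 genes, 38 had at least 1 window, 48 windows in all. A match stood in 22.9% of these windows, against 12.4% of all 32851. Of the 9 measured genes with a match 1 was at least 1.5-fold lower, and of the 25 without a match 7 were. Their median log2 ratios were -0.19 and -0.11. In 1 window a match overlapped a metal response element match. Promoters of 3 genes with a match are printed to show the motif beside different values, the ligase subunit Gclm at -0.23, the reductase Txnrd1 at 0.14 and the lower gene Mgst1 at -0.90. Each is the 250 bases before a RefSeq start on the plus strand of GRCm38.p6, with the match in capitals. Txnrd1 has 3 annotated starts and Mgst1 has 2, of which the one with the match is given.
Gclm, chr3:122245307-122245556: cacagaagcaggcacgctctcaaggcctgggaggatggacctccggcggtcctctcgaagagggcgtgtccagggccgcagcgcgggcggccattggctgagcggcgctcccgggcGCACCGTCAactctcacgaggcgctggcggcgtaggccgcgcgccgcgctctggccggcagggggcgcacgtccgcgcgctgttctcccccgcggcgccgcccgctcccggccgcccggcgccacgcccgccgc
Txnrd1, chr10:82858956-82859205: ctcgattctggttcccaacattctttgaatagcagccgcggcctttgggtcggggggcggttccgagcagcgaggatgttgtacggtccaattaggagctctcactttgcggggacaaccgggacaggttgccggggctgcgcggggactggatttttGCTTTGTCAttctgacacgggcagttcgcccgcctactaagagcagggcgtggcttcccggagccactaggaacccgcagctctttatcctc
Mgst1, chr6:138140277-138140526: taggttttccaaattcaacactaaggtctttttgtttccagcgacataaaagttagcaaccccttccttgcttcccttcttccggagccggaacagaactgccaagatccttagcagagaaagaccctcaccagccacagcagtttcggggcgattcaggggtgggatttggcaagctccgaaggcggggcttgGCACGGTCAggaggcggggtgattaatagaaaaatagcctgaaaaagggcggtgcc

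The genes were also grouped by compartment and by selenocysteine, from textbook roles applied after the values were seen. A group of 4 genes for mitochondrial matrix proteins, Sod2, Prdx3, Txn2 and Txnrd2, had a median log2 ratio of -0.07. None of these 4 was 1.5-fold lower. The group does not cover every listed enzyme found in mitochondria. Gstk1, at 0.18, and Mgst1, an enzyme of the outer mitochondrial membrane among other places, at -0.90, were not in it. Txnrd2 was past 1.5-fold in 3 of the alternatives, at -0.84 with the brightest probe set or the floor at the 75th percentile, and at -0.59 without probe sets marked x, s or a. The 3 peroxidases of the endoplasmic reticulum, Gpx7, Gpx8 and Prdx4, had a median of -0.48, and Gpx8 was the 1 past 1.5-fold. The microsomal transferases, which lie in membranes, are not among these 3. The secreted enzymes Gpx3 and Sod3 had 0.25 and -1.41. Of the 5 genes for selenocysteine-containing enzymes, Gpx1 and Gpx4 were at least 1.5-fold lower, while Gpx3, Txnrd1 and Txnrd2 were within 1.5-fold.

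**Figure D3:**
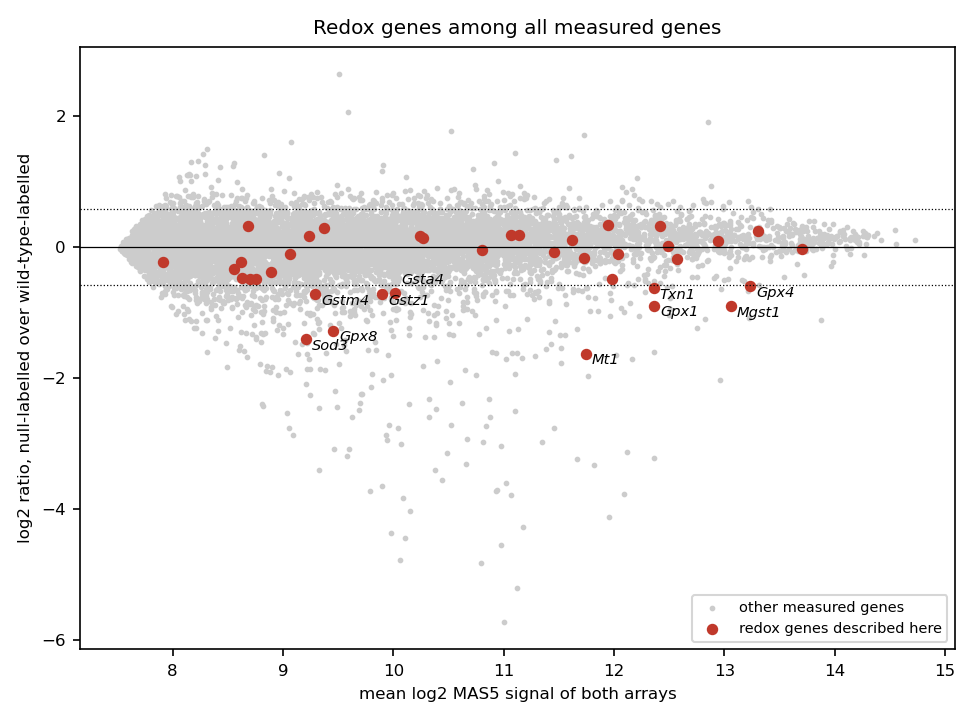
Log2 ratio, null-labelled over wild-type-labelled, against mean log2 MAS5 signal for all 9696 measured genes, with the 38 redox genes in red, those at least 1.5-fold lower named, and 1.5-fold marked by dotted lines. The named genes lie at both dim and bright signals, and none of the red points is above the upper line.

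Further genes of the same pathways, in 6 lists of 119 genes, were counted in the same way, and 91 were measured. These lists too were chosen with earlier results of these data known, so the shares only describe them. At least 1.5-fold lower were 13 (14.3%) and at least 1.5-fold higher 5 (5.49%), beside the 6.34% and 3.38% of all genes. Of the 13, 5 belong to the supply of NADPH, the electron donor for glutathione and thioredoxin reductases, where 5 of 8 measured genes were lower and the median log2 ratio was -0.94. Pgd, the phosphogluconate dehydrogenase, had -2.74 ± 0.28 (SD of 4 probe sets), with mean signals of 713 in the null-labelled pool and 4725 in the wild-type-labelled pool. Taldo1, the transaldolase, had -1.60, and Idh1, the cytosolic isocitrate dehydrogenase, had -1.48 ± 0.36 (SD of 2 probe sets). H6pd, the hexose phosphate dehydrogenase of the endoplasmic reticulum, had -0.95. The 1 further lower gene, Nadk, the NAD kinase, had -0.94 and was named after its value was seen. NADPH also serves fatty acid synthesis in fat and liver, whose markers were lower on the same array as given above. The part of those tissues in these values was not tested. The other measured genes of the list, also named after their values were seen, were within 1.5-fold and not of 1 direction. Nnt had 0.50 ± 0.32 and Me1 -0.41 ± 0.03 (SD of 2 probe sets each), and Idh2 had 0.12.

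Among 17 other glutathione genes, Oplah, which recycles oxoproline to glutamate, was lower at -1.16 and the glutaredoxin Glrx was higher at 0.79 ± 0.46 (SD of 2 probe sets), with Gstcd at -0.49 and the glyoxalase Glo1 at 0.48 ± 0.05 (SD of 4 probe sets). Among 16 thioredoxin-fold and methionine sulfoxide genes, Txndc12, a thioredoxin-like protein of the endoplasmic reticulum, was lower at -0.68. The methionine sulfoxide reductase Msrb3 was higher at 0.76 ± 0.72 (SD of 2 probe sets), while Msrb2 had 0.44 and Sesn1 had 0.42. Both lists thus had 1 gene past 1.5-fold in each direction.

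Among 23 other NRF2 targets and regulators, 4 were lower and 2 higher, with a median of -0.12. Entpd5, a nucleotidase of the endoplasmic reticulum, had -1.32 ± 0.58 (SD of 4 probe sets), the small MAF protein Maff had -0.91 and the aldo-keto reductase Akr1b8 had -0.88. Cul3, the ligase scaffold that KEAP1 binds, was higher at 0.75 ± 0.33 (SD of 5 probe sets). Named after their values were seen, catalase, Cat, had -0.61 and the aldehyde dehydrogenase Aldh1a1 had 0.73.

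Zinc and copper handling genes had a median of -0.22 over 11 genes. Of these, 1 was lower, the copper chaperone Atox1 at -0.69 ± 0.17 (SD of 2 probe sets), with the zinc transporter Slc39a10 at 0.56, the SOD1 copper chaperone Ccs at -0.53 and Cox17 at -0.46. Genes of selenoproteins and selenocysteine insertion had a median of -0.02 over 16 genes. Selenot was higher at 0.65 ± 0.55 (SD of 2 probe sets) and Sephs2, which makes selenophosphate, lower at -0.64 ± 0.37 (SD of 3 probe sets), with Selenos at -0.41 and Eefsec at -0.41.

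**Figure D4:**
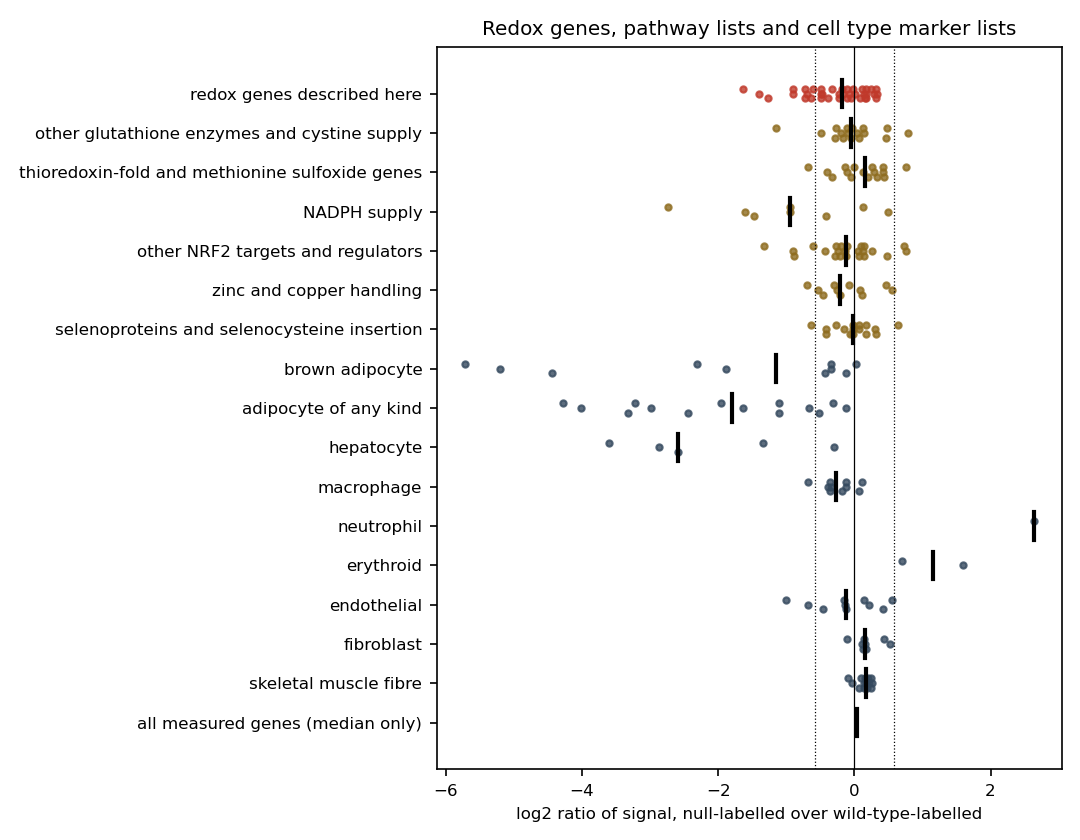
Log2 ratio, null-labelled over wild-type-labelled, of each measured gene (points) and the median (bars) for the redox genes, the 6 pathway lists and the 9 cell type marker lists, with the median of all measured genes in the bottom row and 1.5-fold dotted. The adipocyte and hepatocyte markers reach far lower than any redox gene, and the skeletal muscle fibre markers cluster just above 0.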

How the data were processed

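Skeletal muscle RNA was measured on 2 arrays, 1 per genotype, each of RNA combined from 3 mice. The authors deposited linear MAS5 signal intensities, 1 per probe set. The tool name comes from the submitters' processing notes, without a version. As deposited, each array already had a mean of 500 after 2% of values were trimmed from either end, and rescaling to it left the values unchanged. No detection calls were used, so the floor stands in their place. Of 45037 non-control probe sets, 34945 had 1 symbol in the platform annotation, 932 several and 9160 none here, and 64 control probe sets were left out. All 44 listed symbols matched RefSeq genes of GRCm38.p6, which served for names, chromosomes, gene order and promoter sequences.

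The members and lists were chosen with earlier results of these data known. A count at 1.5-fold or 2-fold was read against all 9696 measured genes. A gene with a probe set at 2 times the floor on 1 array and none measured was given a bound. Named were all listed genes, up to 4 genes with the largest absolute log2 ratio per pathway list, Kdm3a, Ucp1, Adipoq and Alb. With 1 array per genotype no test was run. There were 0 columns of other samples. In 9 alternatives the data were taken without rescaling, or after quantile normalization, median centring or loess (span 0.3), with floors at the 50th and 75th percentile, no floor with a pseudocount of 50, with the brightest probe set, or without probe sets marked x, s or a. The procedure was also run on simulated data that held no variation between mice. That run checks the calculation only and says nothing about the differences between the pools. Python 3.11.15, numpy 2.4.6, pandas 2.3.3, scipy 1.17.1 and statsmodels 0.14.6 were used.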

Additional observations from a re-analysis of the deposited data

How the results depend on the processing

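Under the 9 alternatives the median log2 ratio of the measured redox genes stayed below 0, between -0.31 (brightest probe set) and -0.09 (without probe sets marked x, s or a), and 7 to 12 genes were at least 1.5-fold lower against none higher. The share of all measured genes at least 1.5-fold lower was 5.06% to 7.17%. Of the 10 lower genes, 8 were at least 1.5-fold lower under each alternative that measured them. The exceptions, Txn1 at -0.22 and Mgst1 at -0.45, came with no floor, which averages in a probe set under the floor, and there Mt1 was -0.97. Txnrd2 was past 1.5-fold, at -0.84 to -0.59, in 3 alternatives. Without the probe sets marked x, s or a, Mt1, Gpx4, Gstz1 and Mgst1 were not measured. With the higher of the alternative floors, Gpx8 and Sod3 were not measured. Signs turned for 3 genes within 1.5-fold, Prdx3, Sod2 and Srxn1, and no gene past 1.5-fold turned. The floor limits what can be seen, since genes low on both arrays, such as Gsta3, have no value. No paired analysis was possible because each genotype has 1 array.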

Other observations

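Markers of further cell types were read in the same way. Of 9 neutrophil markers with a probe set, 8 passed the floor in the null-labelled pool and 1 in the wild-type-labelled pool. The 1 marker measured on both arrays had a log2 ratio of 2.63. Of 12 macrophage markers, 10 were measured, with 1 at least 1.5-fold lower and 9 within 1.5-fold. Of these 10, 8 were below 0, where 44.3% of all measured genes were, and the median log2 ratio was -0.27. The 10 endothelial markers had a median of -0.13, with 2 at least 1.5-fold lower, and the 8 fibroblast markers had 0.15, with none past 1.5-fold. Of 6 erythroid markers with a probe set, 2 were measured, and both were at least 1.5-fold higher.

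Disagreement between probe sets was itself uneven among the redox genes. Of the 17 genes with several measured probe sets, 4 had probe sets on both sides of 0, namely Sod1, Sod2, Txnrd1 and Srxn1. In Sod1 and Sod2 the brightest probe sets were below 0, at -0.34 and -0.36, while in Txnrd1 the brightest was above 0, at 0.44. The probe sets of Gstm1, Gsr, Gss and Txn2 agreed within SDs of 0.03 to 0.07.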
